A study of Mus musculus with 18 samples.

Results

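The 38 genes described here were, apart from Scyl2, components or kinases of the protein complexes that give an epithelial cell its apical, basolateral and planar polarity. They were chosen by name from a list of gene symbols, matched to the Ensembl identifiers of the mouse genome GRCm38, out of 43432 genes in the deposited tables. By role they comprised 5 genes of the Scribble module, 7 of the Par module, 6 of the Crumbs module, 6 other membrane-associated guanylate kinases (MAGUKs, scaffolds with a guanylate kinase-like domain), 7 Par-1 and Lkb1 kinases, 6 planar polarity genes and Scyl2. The series asked which genes differ between intestinal stem cells with a conditional knock-out of Dlg1, itself a polarity scaffold, and their wild-type controls. Poly(A) RNA of 5000 to 10000 sorted cells per sample was sequenced in 18 libraries. There were 5 libraries labelled Dlg1 knock out and 5 labelled wildtype at 14 days after a tamoxifen injection, and 4 libraries labelled Dlg1 knock out and 4 labelled wildtype at 2 days (48 hours) after it. All 4 groups had received tamoxifen, the drug that switches on an inducible deletion, and all came from mice of 8 to 16 weeks. The labels name neither the Cre line nor the promoter that drives it, and leave unstated whether replicates came from different animals. All p-values therefore speak only of the spread among these libraries, which may be technical.

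Polarity in epithelia rests on protein modules that exclude one another along the side of the cell. The Crumbs module (Crb3, Mpp5, Patj) and the Par module (Pard3, Pard6, atypical protein kinase C) mark the apical side and the junctions. The Scribble module, made of Scrib, the Dlg proteins and the Lgl proteins, holds the basolateral side, and atypical protein kinase C displaces the Lgl proteins from the apical side by phosphorylation. The Par-1 kinases (Mark1 to Mark4) keep Par components out of the basolateral side and are switched on by Lkb1. Planar polarity, in which cells align within the plane of the sheet, uses the membrane proteins Vangl and Celsr with the cytoplasmic Prickle proteins. In the intestine these complexes shape the columnar crypt and villus cells and the stem cells between Paneth cells at the crypt base.

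The libraries at 14 days held 11.1 to 15.7 M (mega) counts, of which 12101 to 31765 fell on the 38 members. Those at 2 days held 14.8 to 40.5 M counts, with 29099 to 63919 on the members. Of the 2 day libraries, wild-type library 1 had the largest total (40.5 M), the highest share of mitochondrially encoded counts (49.1%) and the lowest scaling factor (0.576). That library gave the lowest value of the 8 for 16 of 34 tested members and the highest for 6, together 22, against 2 to 11 for each of the other 7 libraries. At 14 days the 20 most counted nuclear genes of knock-out library 5 took 48.8% of its counts, against 5.12% to 14.4% in the other 9 libraries. The libraries carried markers of the labelled cells. Summed crypt base stem cell markers (6 of 6 detected in each group) reached 1790 to 2530 CPM (knock-out) and 2000 to 2710 CPM (wild type) at 14 days, and 4880 to 5800 CPM (knock-out) and 5660 to 6470 CPM (wild type) at 2 days. CPM here are counts per 1 M counts after scaling all libraries together. Summed epithelial markers (5 of 5 detected) were 3950 to 5330 CPM (knock-out) and 4200 to 5420 CPM (wild type) at 14 days, and 3070 to 3890 CPM (knock-out) and 3100 to 4170 CPM (wild type) at 2 days. Summed markers were at most 8.7 CPM for stroma and 4.83 CPM for endothelium in any library, with Dcn and Cdh5 at 0 in all 2 day libraries, and summed immune markers were 3.1 to 11.9 CPM except in the 2 day wild-type libraries, where they were 11.2 to 69 CPM. Of the immune markers, Itgam alone had 9.52 to 65.8 CPM in those wild-type libraries. Ptprc, Cd3e, Cd79a and Lyz2 each had at most 2.11 CPM there. Markers of differentiated intestinal cells were not low. At 14 days their sums reached 12100 CPM for Paneth and 5610 CPM for enterocyte markers in wild-type library 3. Goblet markers reached 7480 CPM in knock-out library 1. At 2 days the highest sums were 2820 CPM (Paneth, wild-type library 3), 4100 CPM (enterocyte, knock-out library 1) and 1430 CPM (goblet, knock-out library 2). In bulk RNA of this kind, fewer cells of a type and less RNA per cell cannot be told apart.

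The targeted gene was not called lower at either time. Dlg1 had 56.8, 38.2, 36.9, 60.8 and 85.4 CPM in knock-out libraries at 14 days, against 55.3, 58, 54, 75.1 and 74 CPM in those of wild type. At 2 days it had 51.5, 68.4, 45.6 and 50.4 CPM in knock-out libraries, against 57.1, 74.8, 67 and 82.4 CPM in wild-type libraries. The groups overlapped at both times. The log2 fold change was -0.17 (SE 0.221) at 14 days and -0.38 (SE 0.186) at 2 days, and the adjusted p was 0.957 and 0.866 (quasi-likelihood test of edgeR, Benjamini-Hochberg adjusted across the genes tested). Which exons the deletion removes is not given in the sources used here, and counts over the whole gene cannot show the loss of some of its exons. At 2 days the columns of the group that is not wild type carry the prefix Dmin. This was taken to mean Dlg1 minus, and every value given for 2 day knock-out libraries rests on this reading.

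To compare genes with one another, CPM were divided by the length of the union of a gene's annotated exons. On this scale the apical adaptor Pard6b, the junctional adaptor Lin7c and the LAP-family scaffold Erbin, which binds the receptor ErbB2, stood near the top at both times. Exons of 9 members (Llgl1, Pard3b, Crb3, Lin7b, Mpp1, Stk11, Strada, Vangl1 and Prickle3) overlap those of another gene. The overlap is 8 bases for Vangl1, 14 for Crb3, 45 for Mpp1, 58 for Lin7b and 64 for Llgl1. It is 232 bases for Stk11, 246 for Prickle3 and 583 for Pard3b. Strada overlaps 2 genes on its own strand, by 144 and 158 bases. All 9 values are uncertain to that extent, since the treatment of strand and shared reads is not given in the sources used here. In the Scribble module the mean level over both genotypes at 14 days was 18.6 CPM per kb for Erbin and 15.4 for Llgl2, against 5.88 for Llgl1 and 5.77 CPM per kb for Scrib, and the last pair overlapped between libraries. At 2 days the mean was 26.7 CPM per kb for Erbin, 10.1 for Llgl2, 5.14 for Scrib and 4.72 CPM per kb for Llgl1. Lrrc7, a LAP protein best known from neuronal synapses, had 0 to 6 counts per library at 14 days and 0 counts in all 8 libraries at 2 days, which allows up to 0.039 CPM (knock-out) and 0.0424 CPM (wild type) (3 counts over the group, counting error only).

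In the Par module Pard6b led the Pard6 genes and Prkci the kinases. Pard6b averaged 25.7 CPM per kb at 14 days and 57.4 at 2 days, while Pard6a averaged 2.36 and 1.01 and Pard6g 1.1 and 0.78 CPM per kb at 14 and 2 days. Pard6 proteins link the small GTPase Cdc42 to atypical protein kinase C. Of the kinases, Prkci averaged 13.3 CPM per kb at 14 days and 34.4 at 2 days, and Prkcz averaged 2.79 and 1.47 CPM per kb at 14 and 2 days. The scaffolds Pard3 and Pard3b were close, in a different order at each time, at 4.46 and 4.87 CPM per kb at 14 days and 4.5 and 3.26 CPM per kb at 2 days.

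The order within the Crumbs module differed between the times. Crb3, the short transmembrane protein that anchors the module in epithelia, led at 14 days with 28.2 CPM per kb, followed by Lin7c (21), Mpp5 (also called Pals1, 7.86) and the multi-PDZ scaffold Patj (5.28 CPM per kb). At 2 days Lin7c led with 43.6 CPM per kb, and Crb3, at 5.26 CPM per kb, came after Mpp5 (12.2) and Patj (8.53 CPM per kb). Lin7a and Lin7b, the other genes for this adaptor, had at most 16 and 17 counts in any library. Among the other MAGUKs, Mpp6 and Cask were highest, at 10.1 and 7.34 CPM per kb at 14 days and 12.1 and 14.5 CPM per kb at 2 days, and Mpp2 was lowest, at 0.0857 and 0.408 CPM per kb at 14 and 2 days.

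Of the kinases, Cab39, the scaffold that activates Lkb1 together with the pseudokinase Strada, was highest at 14 days with 19.3 CPM per kb, ahead of Stk11, which encodes Lkb1 (11.5), Mark3 (8.23) and Mark2 (6.05 CPM per kb). At 2 days Mark2 was highest with 22.5 CPM per kb, ahead of Cab39 (12.8), Stk11 (10.2) and Mark3 (7.99 CPM per kb). Mark1 had at most 10 counts in any library. The planar polarity genes stood lower, each at 0.403 to 2.08 CPM per kb at 14 days. Prickle3 (2.08), a partner of Vangl proteins, led them there, and Vangl2 (3.2 CPM per kb) led at 2 days.

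**Figure D1:**
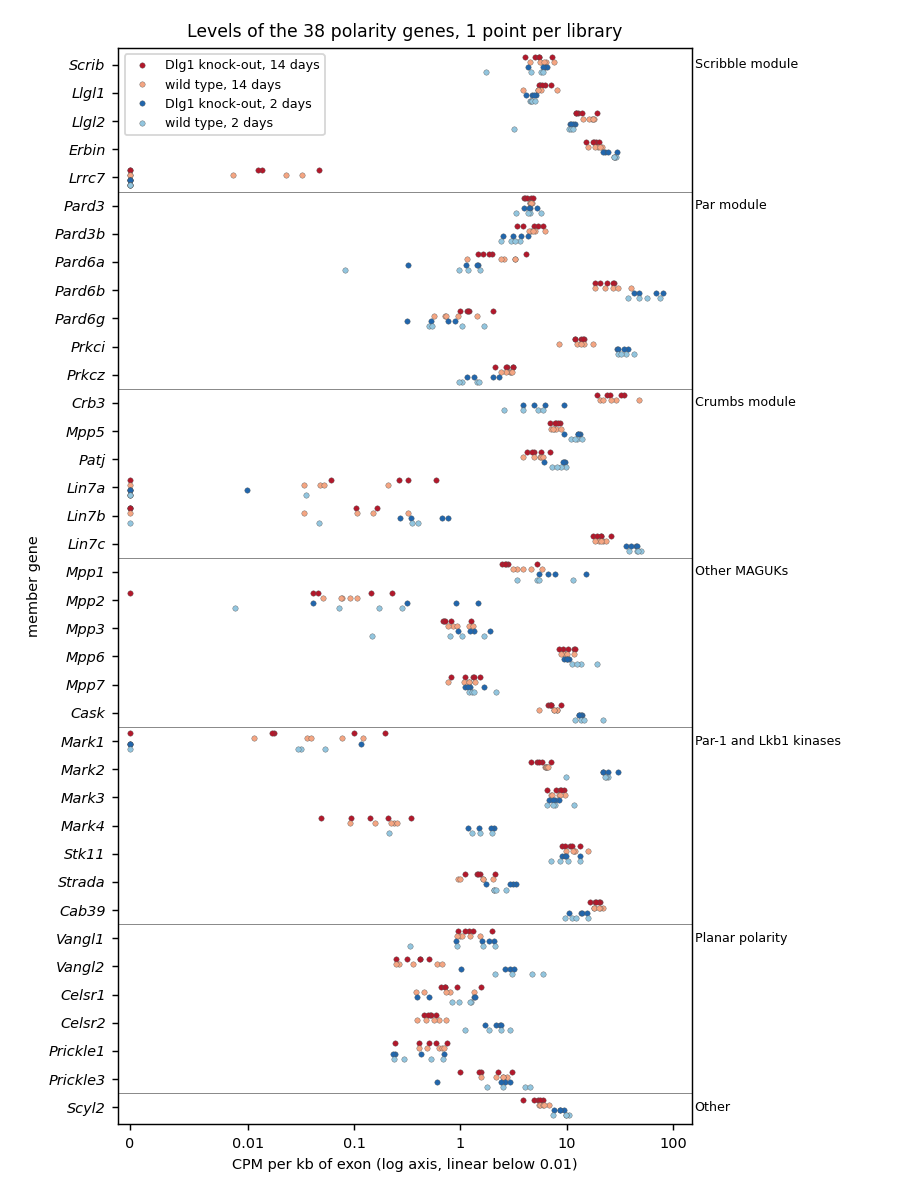
Level of each of the 38 members in each library, in CPM per kb of exon on a log axis that is linear below 0.01, with points at the left edge at 0 counts. Members are grouped by module, and colours mark the 4 groups, knock-out above wild type and 14 days above 2 days. Knock-out and wild-type points of 1 time lie over each other for nearly every member. Several members, among them Crb3, Vangl2, Mark2 and Celsr2, separate the 14 day from the 2 day libraries.

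At 14 days none of the polarity genes tested passed the test between the genotypes. Of the 38 members, 33 passed the filter on low counts, and Lrrc7, Lin7a, Lin7b, Mpp2 and Mark1 did not. The log2 fold change, knock-out over wild type, was positive for 14 and negative for 19, ranged from -0.38 to 0.59 and had a median of -0.07, against 0.01 for all 13991 genes tested. No member had an unadjusted p under 0.05, against 3.99% of all genes (edgeR's quasi-likelihood test). None was called at an adjusted p under 0.05, and the adjusted p-values were 0.957 to 0.999 after Benjamini-Hochberg adjustment. Among all genes this fit called 0 at that time. DESeq2 called 1 gene and no member. For 29 of the 33 members the 95% interval of the difference lay within 1 log2 unit, a factor of 2, on either side of no difference.

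The smallest p-values at 14 days belonged to Pard6g, Mpp1, Llgl2 and Scyl2. Pard6g, the least abundant Pard6 adaptor (chr18:80046890-80119639, GRCm38), had 3.81, 3.63, 3.14, 3.71 and 6.41 CPM in knock-out libraries, against 2.25, 1.77, 2.31, 4.52 and 2.98 CPM in wild-type libraries. Knock-out values lay above 4 of the 5 wild-type values, and the highest belonged to the library with the most unequal counts. Its log2 fold change was 0.59 (SE 0.354, unadjusted p = 0.116, 95% interval -0.17 to 1.35), and 0.36 without knock-out library 5. Without wild-type library 4, its highest wild-type value, it was 0.85 (unadjusted p = 0.0394, adjusted p = 0.999, edgeR's quasi-likelihood test, Benjamini-Hochberg adjusted).

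Mpp1, a MAGUK first known from the red cell membrane (chrX:75109733-75131016), had 28.2, 15, 13.1, 14.3 and 13.9 CPM in knock-out libraries and 24.6, 18.1, 31.1, 20.8 and 16.7 CPM in wild-type libraries. Knock-out library 1 was high, and the other 4 lay under the whole wild-type range. Its log2 fold change was -0.38 (SE 0.24, unadjusted p = 0.137), and it was -0.63 (unadjusted p = 0.00844, adjusted p = 0.999, edgeR's quasi-likelihood test, Benjamini-Hochberg adjusted) without knock-out library 1. Column names at 14 days carry a letter, B for 2 libraries and J for 3 libraries of each genotype. The Mpp1 difference was -0.03 (B) and -0.67 (J) on the log2 scale within the letters.

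Llgl2, an Lgl protein of the basolateral side (chr11:115824049-115855780), had 62.2, 92.8, 59.6, 59.5 and 67.7 CPM in knock-out libraries, against 68.9, 87.5, 83.6, 78.6 and 86.2 CPM in wild-type libraries. All but knock-out library 2 lay below the wild-type range, and that library lay above it. The log2 fold change was -0.22 (SE 0.151, unadjusted p = 0.166). Without that library it was -0.36 (unadjusted p = 0.0156, adjusted p = 0.842, edgeR's quasi-likelihood test, Benjamini-Hochberg adjusted). Within the letters the difference was -0.03 (B) and -0.41 (J).

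Scyl2, a pseudokinase that binds clathrin (chr10:89638721-89686285), had 39.2, 60.7, 50, 54.1 and 57.2 CPM in knock-out libraries, against 55.1, 68.1, 56.2, 59.9 and 62.3 CPM in wild-type libraries. The groups overlapped, with a log2 fold change of -0.18 (SE 0.145) and an unadjusted p of 0.224. Without knock-out library 1 the Scyl2 value was -0.09 (unadjusted p = 0.498). It was -0.33 (B) and -0.14 (J) within the letters. No group of values at 14 days was free of overlap between genotypes for any of the 33 tested members, against 0.55% of all genes.

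Core members of each module were measured closely at 14 days. The log2 fold change was -0.07 (SE 0.133) for Erbin, -0.14 (SE 0.183) for Scrib and 0.12 (SE 0.186) for Llgl1. In the Par module it was -0.06 (SE 0.118) for Pard3, -0.21 (SE 0.202) for Pard6b and 0.01 (SE 0.172) for Prkci. In the Crumbs module it was -0.07 (SE 0.224) for Crb3, 0.04 (SE 0.117) for Mpp5, 0.04 (SE 0.168) for Patj and 0.02 (SE 0.133) for Lin7c. The Lkb1 kinase gene Stk11 had -0.15 (SE 0.155), Mark2 -0.17 (SE 0.136), Mark3 0.03 (SE 0.143) and Cab39 -0.04 (SE 0.124). The planar polarity genes were less precise, with SE of 0.242 to 0.392. Celsr1, an atypical cadherin like Celsr2, had 0.32 (SE 0.353), Celsr2 -0.08 (SE 0.242), Vangl1 0.22 (SE 0.248), Prickle1 -0.19 (SE 0.385) and Prickle3 -0.28 (SE 0.291). Among the scaffolds of the MAGUK family the value was -0.26 (SE 0.25) for Mpp3, 0.13 (SE 0.198) for Mpp7 and 0.00 (SE 0.14) for Cask. Pard3b had -0.07 (SE 0.173), Pard6a -0.17 (SE 0.386), Strada 0.10 (SE 0.267) and Mark4, the least precise, -0.19 (SE 0.549, 95% interval -1.37 to 0.98).

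At 2 days the spread was wider and again no member was called. Of the 38 members, 34 passed the filter, and Lrrc7, Lin7a, Lin7b and Mark1 did not. The log2 fold change was positive for 20 and negative for 14, ranged from -0.70 to 2.37 and had a median of 0.04, against 0.01 for all 13031 genes tested. Members with an unadjusted p under 0.05 were Mpp6, lower in knock-out libraries, and Mpp2, higher in them. These 2 made 5.88% of the members, against 4.91% of all genes. None passed an adjusted p of 0.05 (0.866 to 0.993, edgeR's quasi-likelihood test, Benjamini-Hochberg adjusted), nor did any of the other genes in this fit, while DESeq2 called 11 genes and no member. The 95% interval lay within a factor of 2 for 19 of the 34 members.

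Among the markers of other cell types at 2 days, all 8 enterocyte markers had a positive log2 fold change, with a median of 1.38, and 6 of the 8 had an unadjusted p under 0.05 in edgeR's quasi-likelihood test, none of them called. Their summed level was 4100, 953, 1160 and 1620 CPM in knock-out libraries, against 1300, 906, 1040 and 972 CPM in wild-type libraries. Knock-out library 1 was the highest, and the groups overlapped. The 6 goblet markers were also all positive at 2 days, with a median of 0.48 and 2 under an unadjusted p of 0.05, while 5 of 6 crypt base stem cell markers were negative, with a median of -0.28. At 14 days the 6 goblet markers were all positive, with a median of 0.57 and 1 under an unadjusted p of 0.05, and 7 of 8 enterocyte markers were negative, with a median of -0.32. The 5 tuft and 5 enteroendocrine markers were also all positive at 14 days, with medians of 0.53 and 0.21. Of the 5 Paneth markers, 4 were negative then. At 2 days 4 of 5 tuft, 3 of 5 Paneth and 1 of 4 tested enteroendocrine markers were positive. The part of these markers in the members' genotype differences was not tested.

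Mpp6, a MAGUK scaffold of the p55 family (chr6:50110241-50198939), had 59.1, 63.5, 65.4 and 63 CPM in knock-out libraries, against 121, 69.4, 85.4 and 77.9 CPM in wild-type libraries. Every knock-out value lay below every wild-type value, and wild-type library 1 was far above the rest. Groups without overlap made 1 of 34 tested members and 3.93% of all genes. Its log2 fold change was -0.49 (SE 0.185, unadjusted p = 0.0207, 95% interval -0.90 to -0.09). It was -0.47 (unadjusted p = 0.0512) without knock-out library 1. Without wild-type library 1 it was -0.31 (unadjusted p = 0.0411, adjusted p = 0.887, edgeR's quasi-likelihood test, Benjamini-Hochberg adjusted). At 14 days Mpp6 had 58, 73.6, 74.7, 64.6 and 53.1 CPM in knock-out libraries, against 60, 58.6, 72.3, 62.5 and 55.7 CPM in wild-type libraries, and the groups overlapped.

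Mpp2, a relative of Mpp6 best known from neurons (chr11:102057015-102088515), was near the detection limit. It had 1.51, 0.197, 7.09 and 4.38 CPM in knock-out libraries at 2 days, from 26, 6, 108 and 61 counts, against 0.0428, 0.816, 0.342 and 1.34 CPM in wild-type libraries, from 1, 14, 5 and 21 counts. The groups overlapped, since knock-out library 2 lay below 3 of the wild-type libraries. Its log2 fold change of 2.37 (SE 1.068, unadjusted p = 0.0464) became 1.66 (unadjusted p = 0.182) without knock-out library 3, and its unadjusted p was also above 0.05 without knock-out library 4 and without wild-type libraries 1, 2 or 3, over a range of 0.0151 to 0.182 for leaving out each library.

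Vangl2, the core planar polarity membrane protein (chr1:172000960-172028444), had 18.4, 20.2, 7.09 and 22.3 CPM in knock-out libraries and 41.6, 33.3, 14.8 and 21.2 CPM in the wild-type ones at 2 days. Knock-out library 3 was the lowest and wild-type libraries 1 and 2 the highest. The log2 fold change was -0.70 (SE 0.387, unadjusted p = 0.0948), and -0.44 without wild-type library 1. Leaving out knock-out library 3 gave -0.46 (unadjusted p = 0.203), and leaving out wild-type library 3 gave -0.92 (unadjusted p = 0.032, adjusted p = 0.755, edgeR's quasi-likelihood test, Benjamini-Hochberg adjusted). At 14 days the gene stood at 2.9, 1.71, 2.19, 3.57 and 2.9 CPM in knock-out libraries and 1.83, 1.71, 4.19, 4.67 and 2.48 CPM in wild-type libraries, with a log2 fold change of -0.14 (SE 0.392) that ran from -0.29 to 0.09 when each library was left out in turn.

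Prkcz, the zeta isoform of atypical protein kinase C (chr4:155260129-155361361), had 12.8, 14.6, 8.46 and 7.32 CPM in knock-out libraries and 8.95, 9.33, 6.51 and 6.14 CPM in the wild-type ones at 2 days. The groups overlapped, with 2 knock-out libraries above all wild-type libraries. Its log2 fold change was 0.48 (SE 0.325, unadjusted p = 0.164), and 0.30 (unadjusted p = 0.412) without knock-out library 2. At 14 days it was 0.00 (SE 0.167), with 17.4, 19.8, 13.5, 17.1 and 19.8 CPM in knock-out libraries and 18.3, 18.7, 17.1, 15.3 and 19.2 CPM in wild-type libraries.

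Wild-type library 1 at 2 days also lay apart for Llgl2, Mark2, Mpp1, Mark4 and Scrib, among others. Scrib had 11.2 CPM in that library, against a median of 33.4 CPM over the 4 wild-type libraries. Llgl2 had 51.6, 58.1, 55.5 and 52.7 CPM in knock-out libraries and 15.3, 51.5, 52.7 and 55.3 CPM in wild-type libraries. Its log2 fold change was 0.32 (SE 0.32), and 0.04 without that library. Mark2 had 176, 175, 196 and 239 CPM in knock-out libraries and 78.9, 194, 188 and 183 CPM in wild-type libraries, with a log2 fold change of 0.29 (SE 0.253). Mark4 had 6.97, 9.76, 5.51 and 8.97 CPM in knock-out libraries and 0.985, 9.21, 7.19 and 5.95 CPM in wild-type libraries. Mpp1 had 81.1, 29.5, 41.1 and 35.4 CPM in knock-out libraries and 61.6, 18.1, 27.9 and 29.4 CPM in wild-type libraries, with a log2 fold change of 0.45 (SE 0.386), and 0.04 without knock-out library 1 and 0.24 without wild-type library 2. Without wild-type library 1 it was 0.89 (unadjusted p = 0.0177, adjusted p = 0.879, edgeR's quasi-likelihood test, Benjamini-Hochberg adjusted). The part of that library's other peculiarities in these values was not tested.

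The remaining members at 2 days had intervals that covered no difference. In the Scribble module the log2 fold change was 0.36 (SE 0.329) for Scrib, 0.01 (SE 0.191) for Llgl1 and -0.20 (SE 0.147) for Erbin. The Scrib value includes wild-type library 1, at 11.2 CPM. For the Par genes it was 0.03 (SE 0.19) for Pard3, 0.17 (SE 0.216) for Pard3b, 0.14 (SE 0.246) for Pard6b and -0.08 (SE 0.158) for Prkci, while the sparser Pard6a had 0.23 (SE 0.81) and Pard6g -0.59 (SE 0.603), which was -0.15 without wild-type library 2 and -0.38 without knock-out library 3. The Crumbs genes had 0.47 (SE 0.385) for Crb3, -0.03 (SE 0.16) for Mpp5, 0.03 (SE 0.182) for Patj and -0.12 (SE 0.151) for Lin7c.

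Of the scaffolds, Mpp3 had 0.58 (SE 0.535), Mpp7 -0.20 (SE 0.242) and Cask -0.21 (SE 0.185) at 2 days. Of the kinase genes, all but Mark3 had positive values, at -0.13 (SE 0.194) for Mark3, 0.43 (SE 0.541) for Mark4, 0.09 (SE 0.225) for Stk11, 0.32 (SE 0.27) for Strada and 0.13 (SE 0.186) for Cab39. The planar polarity genes had 0.36 (SE 0.483) for Vangl1, -0.25 (SE 0.41) for Celsr1, 0.05 (SE 0.286) for Celsr2, -0.13 (SE 0.634) for Prickle1 and -0.58 (SE 0.451) for Prickle3, and Scyl2 had -0.13 (SE 0.158), which was -0.07 without wild-type library 2 and -0.08 without knock-out library 3.

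**Figure D2:**
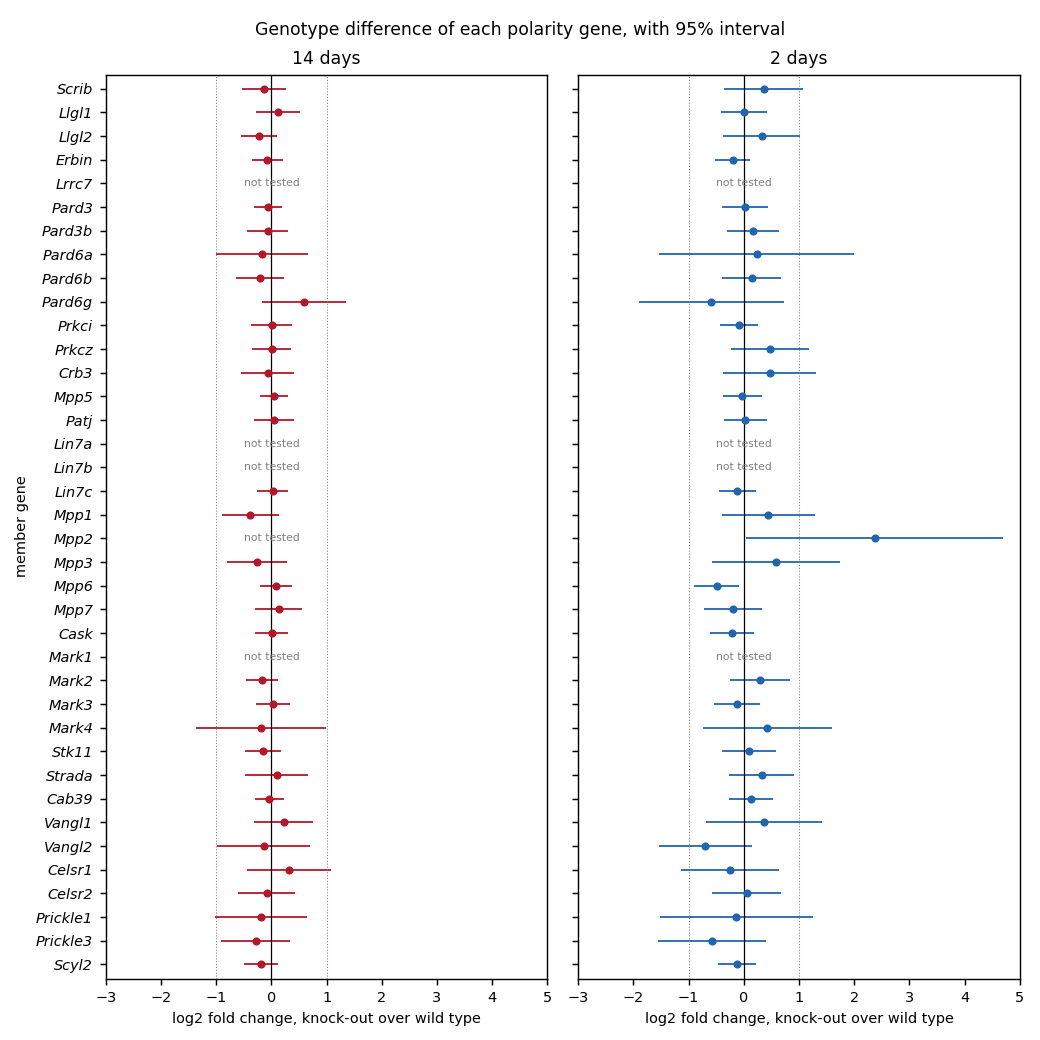
Log2 fold change of each member, knock-out over wild type, with its 95% interval from edgeR's quasi-likelihood fit, at 14 days (left) and 2 days (right). Dotted lines mark 1 log2 unit on either side of 0, and members that failed the filter on low counts are marked as not tested. All 33 intervals at 14 days cover 0, and at 2 days those of Mpp6 and Mpp2 do not.

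**Figure D3:**
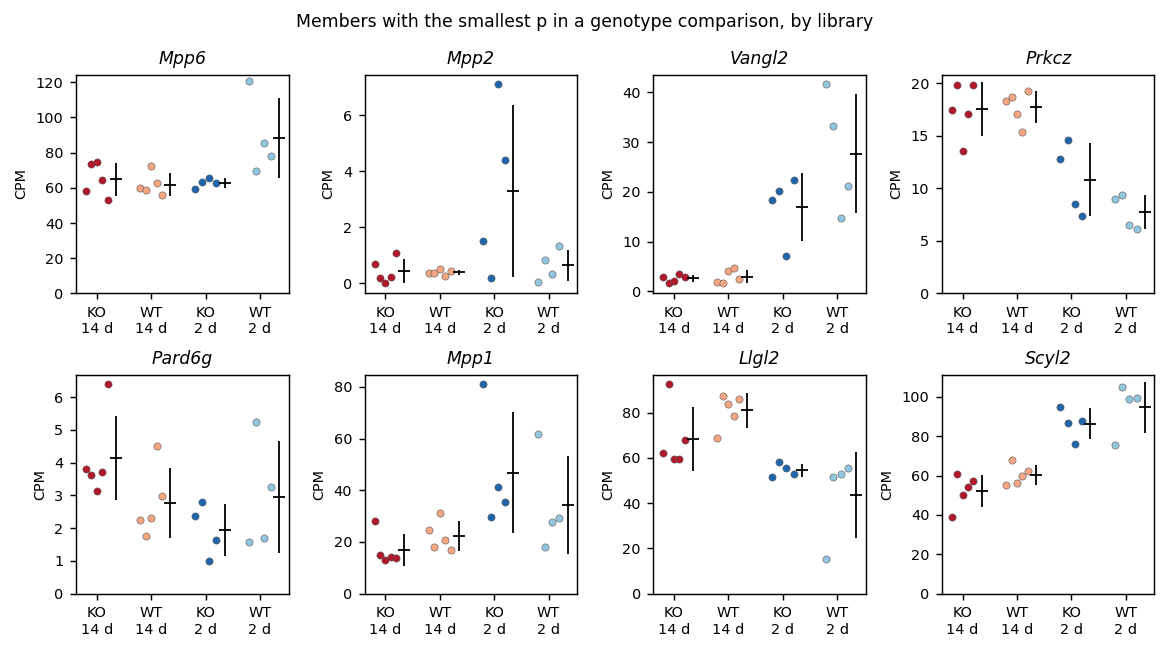
CPM of 8 members, the 4 with the smallest p between genotypes at 14 days and the 4 at 2 days, 1 point per library, with the mean and SD of each group beside the points (5 libraries a group at 14 days, 4 at 2 days). Groups run from knock-out at 14 days to wild type at 2 days, and of these 8 only Mpp6 at 2 days has every knock-out point below every wild-type point.

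With the 18 libraries in 1 fit, the mean of the genotype effects at 14 and 2 days was positive for 18 and negative for 17 of 35 members tested, with a median of 0.02. No member had an unadjusted p under 0.05, against 5.81% of 15458 genes, and the smallest adjusted p was 0.829 (edgeR's quasi-likelihood test, Benjamini-Hochberg adjusted). DESeq2 called no member either, and 7 genes in all. The 95% interval lay within a factor of 2 for 32 of the 35. Mpp6 had an averaged log2 fold change of -0.21 (SE 0.114, interval -0.45 to 0.02), Dlg1 one of -0.28 (SE 0.151) and Prickle3 one of -0.44 (SE 0.273).

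An interaction term tested for a change of the genotype effect with time. Its unadjusted p was under 0.05 for 1 of 35 members (2.86%), against 5.96% of all genes. That member was Mpp6, whose effect was higher by 0.57 (SE 0.227, unadjusted p = 0.021) at 14 days than at 2 days. The adjusted p was 0.798 (edgeR's quasi-likelihood test, Benjamini-Hochberg adjusted), and without wild-type library 1 of the 2 day table the difference was 0.39 (unadjusted p = 0.0645). Without that library the Mpp1 effect differed by -1.28 (unadjusted p = 0.00799, adjusted p = 0.923, edgeR's quasi-likelihood test, Benjamini-Hochberg adjusted). No member was called in the interaction, by this test or by DESeq2, which called 11 genes in all.

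Other genes of the same pathways were not called between genotypes either. From a list of 30 (further Dlg, Crumbs, Celsr, Prickle, Frizzled and Dishevelled genes, small GTPases and junction scaffolds), 25 were tested at 14 days, with 11 log2 fold changes positive, 14 negative and a median of -0.05. At 2 days 22 were tested, with 10 positive, 12 negative and a median of -0.01. None was under an unadjusted p of 0.05 at either time, and none was called by edgeR's quasi-likelihood test. At 14 days the smallest p belonged to Git1, an Arf GTPase-activating protein, with a log2 fold change of -0.25 (SE 0.143, 95% interval -0.56 to 0.05). At 2 days the smallest belonged to Dvl3, a Dishevelled protein of Wnt and planar polarity signalling, at -0.44 (SE 0.212). Dlg3, a paralogue of Dlg1, had a log2 fold change of -0.05 (SE 0.151) at 14 days and 0.41 (SE 0.232) at 2 days. Cdc42, the small GTPase that binds Pard6, had one of 0.34 (SE 0.21) at 14 days and -0.07 (SE 0.184) at 2 days.

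Between the times, unlike between the genotypes, many genes were called, and polarity genes about as often as all genes when both directions are counted. In either direction 54.29% of the members were called in knock-out and 51.43% in wild-type libraries. The shares by direction follow. In knock-out libraries 4 of 35 members were called higher at 14 days than at 2 days (11.43%), against 25.3% of all genes, and 15 were called lower (42.86%), against 25.1% of all genes (adjusted p under 0.05, edgeR's quasi-likelihood test, Benjamini-Hochberg adjusted). In wild-type libraries 5 were called higher (14.29%), against 27.7% of all genes, and 13 lower (37.14%), against 25.7%. The 4 called higher in knock-out libraries include Lin7a, which passed the filter only through its higher 14 day counts, as described below. The 15 called lower include Mpp2, which failed the filter at 14 days and passed through its higher 2 day counts. The median log2 difference of the members was -0.20 in knock-out and -0.48 in wild-type libraries, against 0.06 and 0.12 over all genes. Both genotypes called 3 members higher and 12 lower, and none in opposite directions. That is 42.86% of the 35 members and 42.29% of all genes. Each time is a table of its own, so time after tamoxifen and table (run, cohort, preparation) cannot be told apart.

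The members called higher in both genotypes were Crb3, Prkcz and Cab39. Crb3 had 54.3, 37.5, 51.3, 40 and 30.1 CPM at 14 days, against 7.73, 9.69, 6.1 and 14.6 CPM at 2 days in knock-out libraries. In wild-type libraries it had 32.5, 45.7, 74.2, 40.8 and 34.1 CPM at 14 days, against 3.98, 8.33, 9.31 and 6.08 CPM at 2 days. All values at 14 days were above all at 2 days, with log2 differences of 2.16 (SE 0.308) in knock-out and 2.72 (SE 0.317) in wild-type libraries and adjusted p of 6.06e-06 and 4.13e-07 (edgeR's quasi-likelihood test, Benjamini-Hochberg adjusted). Prkcz differed by 0.69 (SE 0.233) in knock-out and 1.20 (SE 0.237) in wild-type libraries, and Cab39 by 0.51 (SE 0.154) and 0.69 (SE 0.154). The knock-out calls of both did not hold under every alternative. Prkcz reached an adjusted p of 0.0785 and Cab39 one of 0.0501 with no filter on low counts (edgeR's quasi-likelihood test, Benjamini-Hochberg adjusted), and Prkcz was also not called without knock-out library 3 or 4 of the 2 day table. Over the alternatives the knock-out difference was 0.56 to 0.88 for Prkcz and 0.41 to 0.59 for Cab39.

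The members called lower in both were Erbin, Pard6b, Prkci, Mpp5, Patj, Lin7c, Cask, Mark2, Mark4, Vangl2, Celsr2 and Scyl2. Vangl2 had the largest log2 difference in wild-type libraries, -3.22 (SE 0.39), beside -2.68 (SE 0.389) in knock-out libraries, with adjusted p of 6.57e-07 and 7.6e-06 (edgeR's quasi-likelihood test, Benjamini-Hochberg adjusted). Mark4 had -3.32 (SE 0.579) in knock-out and -2.68 (SE 0.56) in wild-type libraries, from a level of at most 1.58 CPM in every 14 day library. Mark2 had 46.3, 56.4, 41.5, 43.9 and 36.4 CPM at 14 days in knock-out libraries and 49.2, 50.9, 50.7, 51.5 and 53.3 CPM in wild-type libraries, each below the lowest value at 2 days, 78.9 CPM. Its log2 difference was -2.13 (SE 0.205) in knock-out and -1.65 (SE 0.202) in wild-type libraries. Celsr2, an atypical cadherin, had 5.26, 6.79, 6, 6.11 and 5.68 CPM at 14 days against 24.9, 19.7, 26.8 and 27.8 CPM at 2 days in knock-out libraries, a log2 difference of -2.05 (SE 0.257). In wild-type libraries it had 4.5, 7.16, 5.47, 8.45 and 6.5 CPM at 14 days against 12.8, 33.9, 21.4 and 27.6 CPM at 2 days, a log2 difference of -1.89 (SE 0.255).

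Within the apical modules the members differed between the 14 and 2 day libraries in different directions. The exons of Crb3 span 1.564 kb, against 4.521 kb for Lin7c, 8.777 kb for Mpp5 and 13.086 kb for Patj, and exon length is taken up below. Prkci differed by -1.33 (SE 0.172) in knock-out and -1.41 (SE 0.172) in wild-type libraries, against the higher Prkcz. Pard6b, with 69.8, 94.2, 81, 62.5 and 93.5 CPM at 14 days and 273, 237, 146 and 164 CPM at 2 days in knock-out libraries, differed by -1.35 (SE 0.236). In wild-type libraries Pard6b had 77, 137, 62.3, 92.8 and 103 CPM at 14 days and 129, 257, 195 and 162 CPM at 2 days, a difference of -0.97 (SE 0.235). Pard3 differed by -0.06 (SE 0.148) in knock-out and 0.04 (SE 0.148) in wild-type libraries and was called in neither. Lin7c differed by -0.996 (SE 0.143) and -1.12 (SE 0.143), Mpp5 by -0.61 (SE 0.136) and -0.66 (SE 0.136) and Patj by -0.69 (SE 0.179) and -0.69 (SE 0.179) in knock-out and wild-type libraries.

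Of the Scribble module, Erbin alone was called in both genotypes, at -0.46 (SE 0.138) in knock-out and -0.57 (SE 0.138) in wild-type libraries. Erbin had 144, 122, 151, 159 and 141 CPM at 14 days against 239, 181, 173 and 196 CPM at 2 days in knock-out libraries. In wild-type libraries it had 125, 157, 171, 148 and 163 CPM at 14 days against 228, 233, 223 and 223 CPM at 2 days. Scrib differed by -0.08 (SE 0.265) in knock-out and 0.43 (SE 0.267) in wild-type libraries, and Llgl1 by 0.36 (SE 0.184) and 0.27 (SE 0.184), with no call. The wild-type Scrib value includes library 1 of the 2 day table, at 11.2 CPM. Calls in 1 genotype only were those of Lin7a, Mpp1, Mpp2 and Strada in knock-out libraries and of Llgl2, Mpp6 and Pard3b in wild-type libraries, and none of the 7 was called in the interaction. Mpp2 failed the filter at 14 days, with 0 to 9 counts per knock-out library, against 6 to 108 at 2 days. Its call rests on the 2 day libraries whose higher counts let it pass and is given as a description. Lin7a failed the filter within each time and passed it only with the 18 libraries together, in 19 of 24 settings, so its call rests on the 14 day libraries whose higher counts let it pass and is given as a description. It had 45 counts summed over the knock-out libraries at 14 days (0 to 16 per library) against 1 at 2 days, a ratio of 54 after scaling. In wild-type libraries it had 21 counts at 14 days (0 to 14 per library) against 2 at 2 days, a ratio of 8.37. The 95% intervals of the ratios, from counting error alone, were 9.21 to 2180 (knock-out) and 2.05 to 73.7 (wild type), and they overlapped. These ratios pool the libraries, leave out the spread among them and are a description only.

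The difference between the times also moved with exon length across all genes. From the shortest to the longest quartile of exon length, the median log2 difference was 1.04, 0.23, -0.20 and -0.44 in knock-out libraries and 1.17, 0.35, -0.14 and -0.47 in wild-type libraries. Of the 35 members tested, 30 lay in the 2 longer quartiles, which began at 3.92 kb. In the longest quartile 8 of 18 members were called lower in each genotype, beside 43.29% of all its genes in knock-out and 44.46% in wild-type libraries. In the quartile before it 6 of 12 members were called lower in knock-out and 4 of 12 in wild-type libraries, beside 31.66% and 31.34% of its genes. Crb3, with 1.56 kb of exon, and Vangl2, with 6.99 kb, lay beyond the medians of their own quartiles in opposite directions. The part of exon length in the members' differences was not tested.

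**Figure D4:**
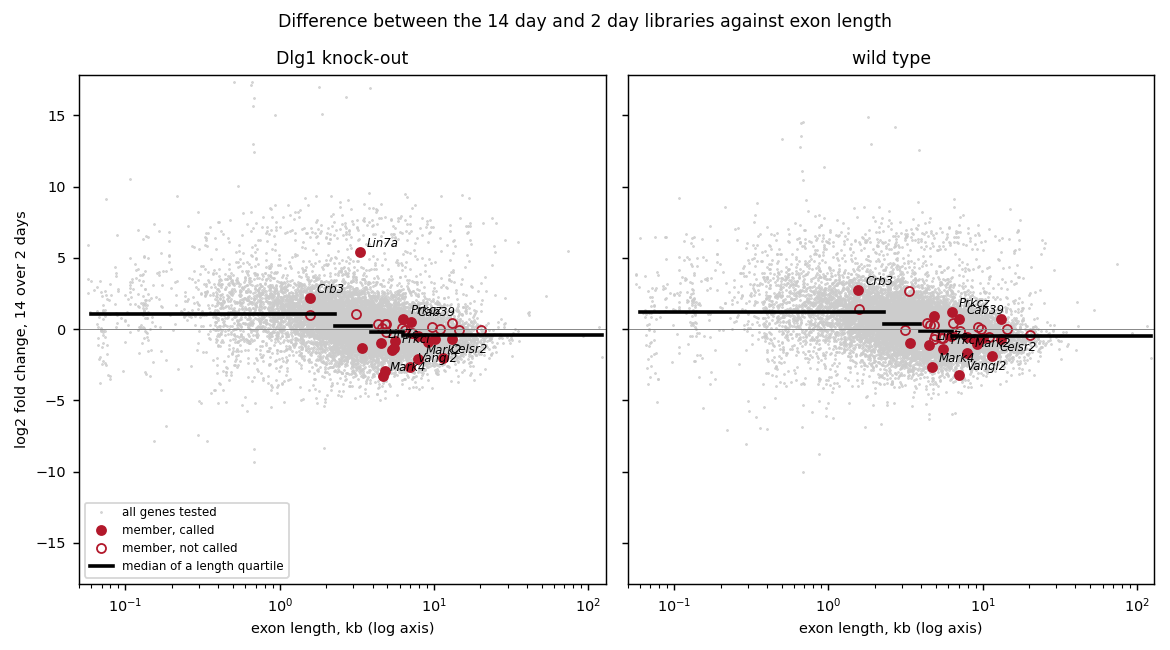
Log2 difference of 14 over 2 days against exon length in kb on a log axis, in knock-out (left) and wild-type (right) libraries. Grey points are all genes tested, black bars the medians of the 4 length quartiles, and red points the members, filled where called. The bars step down from 1.04 to -0.44 in knock-out and from 1.17 to -0.47 in wild-type libraries, and most members lie where the bars are below 0.

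Some pairs of paralogues with exons of like length differed between the times too, in ratios taken within a library and so free of its scaling. Vangl2 (6.99 kb) over Vangl1 (7.156 kb), per kb, was 0.125 to 0.437 in knock-out and 0.161 to 0.648 in wild-type libraries at 14 days. At 2 days it was 1.12 to 1.72 in knock-out and 1.3 to 17.8 in wild-type libraries. The highest ratio, in wild-type library 1, came from a Vangl1 level of 2.4 CPM, against 6.65 to 15.2 CPM in the other 3. Vangl1 itself differed by -0.29 (SE 0.381) in knock-out and -0.13 (SE 0.382) in wild-type libraries between the times. So Vangl1 was the more abundant per kb in all 10 libraries at 14 days, and Vangl2 in all 8 at 2 days.

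Mark2 (7.942 kb) over Mark3 (9.7 kb), both Par-1 kinases, was 0.522 to 0.898 in knock-out and 0.676 to 0.886 in wild-type libraries at 14 days. At 2 days it was 2.58 to 4.03 in knock-out and 0.852 to 3.61 in wild-type libraries, with wild-type library 1 lowest and the only 1 of the 8 inside the 14 day range. Mark3 differed by 0.11 (SE 0.168) in knock-out and -0.02 (SE 0.167) in wild-type libraries. Prkci (5.551 kb) over Prkcz (6.318 kb) was 3.84 to 6.37 in knock-out and 3.14 to 6.04 in wild-type libraries at 14 days, against 13 to 30.2 in knock-out and 21.5 to 41.4 in wild-type libraries at 2 days. Llgl2 over Llgl1 was 1.95 to 3.5 in knock-out and 2.02 to 4.44 in wild-type libraries at 14 days, and 2.23 to 2.74 in knock-out and 0.705 to 2.31 in wild-type libraries at 2 days, and these ranges overlapped. A ratio of this kind shows unequal change and not which partner changed.

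**Figure D5:**
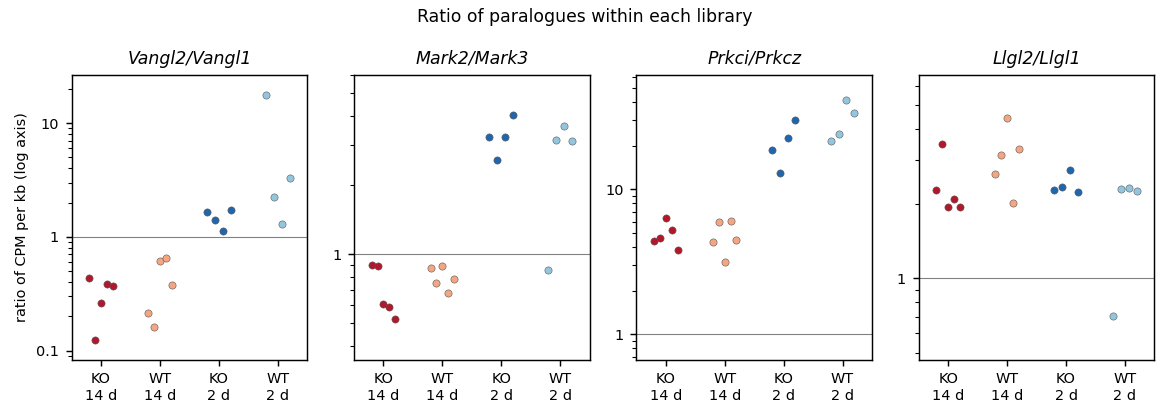
Ratio of CPM per kb of exon between paralogues within each library, on a log axis, for 4 pairs, with groups from knock-out at 14 days (left) to wild type at 2 days (right) and a line at 1. Vangl2/Vangl1 lies below 1 in all 14 day libraries and above 1 in all 2 day libraries, Prkci/Prkcz is above 1 in every library, and Llgl2/Llgl1 overlaps between the times.

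Other pathway genes were also called between the times. In knock-out libraries 3 of 25 tested were called higher and 10 lower at 14 days, beside 25.3% and 25.1% of all genes, and in wild-type libraries 1 higher and 11 lower, beside 27.7% and 25.7%. Their median log2 difference was -0.33 in knock-out and -0.42 in wild-type libraries. Of the 3 Dishevelled genes, Dvl3 was called lower and Dvl1 higher in both genotypes. Dvl3 had 9.91, 13, 6.44, 5.1 and 7.25 CPM at 14 days against 65.9, 61.2, 63.6 and 64.8 CPM at 2 days in knock-out libraries, a log2 difference of -2.93 (SE 0.246), beside -3.35 (SE 0.247) in wild-type libraries. Dvl1 differed by 1.59 (SE 0.238) and 1.65 (SE 0.238) in knock-out and wild-type libraries. Dvl2 differed by -0.94 (SE 0.438) in knock-out libraries, with no call, and by -1.27 (SE 0.432) in wild-type libraries, where it was called lower. Dvl3 over Dvl1 per kb was 0.0475 to 0.113 in knock-out and 0.0538 to 0.112 in wild-type libraries at 14 days, and 1.3 to 2.22 in knock-out and 1.88 to 3.6 in wild-type libraries at 2 days. Dlg1 differed by 0.04 (SE 0.214) in knock-out and -0.15 (SE 0.213) in wild-type libraries and was called in neither.

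Marker sums of several intestinal cell types also differed between the times. Summed crypt base stem cell markers were lower at 14 days, as given above. Of the 6, 4 were called lower in each genotype. Smoc2 was not lower. Its mean was 267 CPM (knock-out) and 316 CPM (wild type) at 14 days, against 249 CPM in both genotypes at 2 days. Ascl2 was not lower in knock-out libraries, with a mean of 36.6 CPM at 14 days and 35.4 CPM at 2 days. In wild-type libraries mean Ascl2 was 32.9 CPM at 14 days and 51 CPM at 2 days. Summed goblet markers (6 of 6 detected) were 1420 to 7480 CPM (knock-out) and 1130 to 3290 CPM (wild type) at 14 days, against 513 to 1430 CPM (knock-out) and 535 to 769 CPM (wild type) at 2 days. At 14 days summed Paneth markers (5 of 5 detected) were 2290 to 3600 CPM (knock-out) and 1420 to 12100 CPM (wild type). At 2 days they were 618 to 1760 CPM (knock-out) and 178 to 2820 CPM (wild type). Defa24 was the largest of the 5 at 14 days, at a mean of 2320 CPM (knock-out) and 3020 CPM (wild type). Mean Lyz1 was lower at 14 days, at 340 and 400 CPM, against 443 and 575 CPM at 2 days (knock-out and wild type). Of the 5, 2 were called higher in knock-out and 1 in wild-type libraries. Summed enteroendocrine markers (5 of 5 detected) were 165 to 225 CPM (knock-out) and 96.3 to 312 CPM (wild type) at 14 days, against 27.1 to 347 CPM (knock-out) and 99.6 to 195 CPM (wild type) at 2 days. Summed tuft markers (5 of 5 detected) were 32.1 to 97.5 CPM (knock-out) and 16.2 to 81.2 CPM (wild type) at 14 days, against 9.05 to 51.9 CPM (knock-out) and 5.41 to 21.1 CPM (wild type) at 2 days. Summed enterocyte markers (8 of 8 detected) were 855 to 3820 CPM (knock-out) and 1000 to 5610 CPM (wild type) at 14 days, against 953 to 4100 CPM (knock-out) and 906 to 1300 CPM (wild type) at 2 days. Their part in the members' differences between times was not tested.

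The promoters of Crb3 and Vangl2, the members called in both genotypes with the largest wild-type difference in each direction, are shown as the sequence from 250 bases before to 50 bases after the RefSeq start (GRCm38.p6, each on its own strand). The first promoter listed for each gene was taken. Both windows lie inside the annotated gene, whose outermost start is chr17:57059105 for Crb3 and chr1:172028444 for Vangl2. Which start these cells use was not tested. Capitals mark the E-box CAGGTG and the GC box CCGCCC, both searched on both strands.
Crb3 promoter, chr17:57061951-57062250, plus strand: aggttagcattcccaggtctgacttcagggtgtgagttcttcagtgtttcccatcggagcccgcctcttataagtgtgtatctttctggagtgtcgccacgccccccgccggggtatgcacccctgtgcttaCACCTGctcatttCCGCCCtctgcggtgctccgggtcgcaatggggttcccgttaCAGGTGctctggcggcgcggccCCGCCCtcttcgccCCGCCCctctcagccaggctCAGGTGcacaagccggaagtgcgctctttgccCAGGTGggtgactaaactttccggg
Vangl2 promoter, chr1:172027246-172027545, minus strand: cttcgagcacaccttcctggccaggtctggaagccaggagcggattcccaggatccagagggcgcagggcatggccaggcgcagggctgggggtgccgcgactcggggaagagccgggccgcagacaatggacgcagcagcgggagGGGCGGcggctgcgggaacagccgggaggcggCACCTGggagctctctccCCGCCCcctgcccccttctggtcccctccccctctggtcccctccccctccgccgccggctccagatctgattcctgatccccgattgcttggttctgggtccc
The Crb3 window had a GC content of 62.3% and held 4 E-box and 3 GC box matches. The Vangl2 window had a GC content of 71.3%, with 1 E-box and 2 GC box matches. Neither held the T-cell factor motif CTTTGA on either strand. The E-box letters occur in 20.21%, the GC box letters in 35.66% and the T-cell factor letters in 16% of the 32851 promoters of the same length in the table, which includes those of non-coding genes. Of the 27 members with a promoter there, 14 held an E-box, 24 a GC box and 2 the T-cell factor letters. Members without a promoter there were not counted. These are counts of members, whereas the percentages are shares of single promoters. The units differ, so the counts and percentages cannot show whether the letters are more frequent in members. Such matches describe letters in these windows and say nothing of binding.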

How the data were processed

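Poly(A) RNA of sorted intestinal stem cells was sequenced with a SmartSeq and Nextera XT protocol without molecular identifiers, per the labels' protocols. The authors deposited raw read counts per Ensembl gene in 1 table for each time, and STAR 2.4.2a, bcl2fastq 2.20.0.422 and GRCm38 are named in the submitters' processing notes. The annotation, counter and strand setting were not given in the sources used here. Columns were matched to groups by name, and 0 columns belonged to no sample. Of 43432 identifiers, 42548 matched a symbol.

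The members and lists were chosen with earlier results of these data known. All 38 members were described. Values in every sample were given for members at an unadjusted p under 0.05 between genotypes, filled to the 4 of smallest p per time, and by module for the member of highest level. Genes shown in full for the 14 over 2 day difference, the paralogue pairs and the promoters were chosen after their values were seen.

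The counts were fitted with edgeR 4.0.16 (quasi-likelihood F-test) in R 4.3.3, with TMM scaling, filterByExpr at a minimum count of 10 and Benjamini-Hochberg adjustment over all genes tested, within each time for genotype and over the 18 libraries for the averaged, interaction and time contrasts. Calls were made at an adjusted p under 0.05. SE were derived from the F statistic and 95% intervals from its degrees of freedom. The fit was tested on simulated data. Exon lengths came from GENCODE M21 and promoters from RefSeq. Alternatives were RLE scaling, no filter, a minimum count of 50, DESeq2 1.42.0 and leaving out each library. Fits with the column letter as a term and without both libraries that stood apart were added after the data were seen. Library totals limit the precision. Floors of 3 counts cover counting error only, and PCR copies make reads dependent.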

Additional observations from a re-analysis of the deposited data

Results flagged for a closer look

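In 7 of 64 groups of libraries, 1 library stood far from the others of its group, over 16 genes checked; chance alone gives this in about 1 in 20 groups. At 14 days these were knock-out library 5 for Pard6g (6.41 CPM, against 3.14 to 3.81 in the others), knock-out library 1 for Mpp1 (28.2 CPM, against 13.1 to 15 CPM) and for Cask (80.3 CPM, against 61.6 to 64.5 CPM), knock-out library 2 for Llgl2 (92.8 CPM, against 59.5 to 67.7 CPM) and wild-type library 3 for Cask (50.6 CPM, against 68.9 to 74.9 CPM). At 2 days wild-type library 1 was low for Llgl2 (15.3 CPM, against 51.5 to 55.3 CPM) and for Mark2 (78.9 CPM, against 183 to 194 CPM).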

How the results depend on the processing

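No member was called between genotypes in any alternative that was run. Members at an unadjusted p under 0.05 at 2 days numbered 2, and 1 with a minimum count of 50, where Mpp2 is not tested. Leaving out each library gave 1 to 2 at 2 days, 0 to 1 at 14 days, 0 to 1 for the averaged effect and 1 to 2 for the interaction. Without both libraries that stood apart, a setting added after the data were seen, the averaged effect gave 1 (Scyl2) and the interaction 2 (Mpp1 and Mpp6), and the cause was not tested. With the column letter as a term, also added, 14 days gave 0. With no filter on low counts edgeR's quasi-likelihood test called 7 genes at 2 days, 2 at 14 days, 40 for the averaged effect and 98 for the interaction, none a member, against 0, 0, 1 and 0 with the filter. Members called between 14 and 2 days numbered 19 in knock-out libraries (17 to 23 over the alternatives) and 18 in wild-type libraries (17 to 22), with no change of direction among the called members. The calls of Erbin, Prkcz, Mpp2 and Cab39 in knock-out and of Mpp6 in wild-type libraries were lost in some alternative. The median log2 difference over all genes between the times was 0.15 in knock-out and 0.18 in wild-type libraries with RLE scaling, and 0.82 and 0.83 with no filter. No paired analysis was possible because the columns carry no replicate number from the labels.

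Lrrc7, Lin7a, Lin7b and Mark1 were too low for a genotype test, and 15 of 34 intervals at 2 days reached beyond a factor of 2.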
